A study of Mus musculus with 32 samples.

Results

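The miR-200 family was followed through all 8 groups of a mouse ovarian cancer series. Its members were rows of the mouse small RNA-seq table named for the family, chosen by name, with earlier results of these data known. They were mmu-miR-200b-3p, mmu-miR-200a-3p, mmu-miR-429-3p, mmu-miR-200c-3p and mmu-miR-141-3p, which are the 5 guide strands, and the 2 passenger strands mmu-miR-200a-5p and mmu-miR-200b-5p. These 7 miRNAs were 7 of 1513 in the table. All 7 had reads in every intraperitoneal library, and 5 of the 7 had reads in every orthotopic library.

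The family is best known as a keeper of the epithelial state. Its guide strands repress Zeb1 and Zeb2, transcription factors that switch off E-cadherin, and ZEB proteins in turn repress both miR-200 loci, so that each side holds the other down. Members are abundant in epithelia and scarce in fibroblasts, endothelium and blood cells.

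The mature sequences are shown because the family divides by a single base of the seed. The seed, bases 2 to 8 from the 5′ end, is the stretch that pairs with target mRNAs, and it is written in capitals. All 7 members matched a RefSeq mature sequence (GRCm38.p6).
mmu-miR-200b-3p: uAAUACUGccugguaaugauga
mmu-miR-429-3p: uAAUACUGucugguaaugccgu
mmu-miR-200c-3p: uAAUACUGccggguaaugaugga
mmu-miR-200a-3p: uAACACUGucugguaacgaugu
mmu-miR-141-3p: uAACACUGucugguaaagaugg
mmu-miR-200a-5p: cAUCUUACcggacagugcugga
mmu-miR-200b-5p: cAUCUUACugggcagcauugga
The guide strands carried 2 seeds. mmu-miR-200b-3p, mmu-miR-429-3p and mmu-miR-200c-3p shared AAUACUG, whereas mmu-miR-200a-3p and mmu-miR-141-3p shared AACACUG. The 5p strands shared another, unrelated seed, AUCUUAC.

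The genes lie in clusters on different chromosomes, and each cluster holds both guide seeds. Mir200b, Mir200a and Mir429 are on the minus strand of chromosome 4 (GRCm38), from 156053905 to 156055750, within introns of the protein-coding gene Ttll10. The same stretch lies in the non-coding gene Gm13648, of which Mir429 overlaps an exon. Mir200c and Mir141 are on the minus strand of chromosome 6, from 124717914 to 124718390, within introns of the antisense gene Gm15884, and Mir141 also overlaps an exon of Gm29008. The closest relatives sit on different chromosomes: counting from the 5′ end, mmu-miR-200b-3p differed from mmu-miR-200c-3p by U11G and A22G, and mmu-miR-200a-3p differed from mmu-miR-141-3p by C17A and U22G. Reads were mapped by the authors with up to 2 mismatches, so a read of one of these miRNAs could have been given to its relative on the other chromosome. How much this moved the values was not tested.

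ID8-T6 is a subclone, highly metastatic in the abdomen, of ID8, a carcinoma line from the ovarian surface epithelium of C57BL/6 mice. All hosts and controls were female nude mice of the strain BALB/cSlc-nu/nu, which lack mature T cells, at 8 weeks of age. In the intraperitoneal (IP) model, sampled on day 14, the groups were EVs from the pelvic peritoneum of tumor-bearing mice (IP tumor EVs), EVs from the same site after PBS alone (IP normal EVs), tumor tissue, and normal tissue, which the study's methods give as ovary (n = 3 each). In the orthotopic (OT) model, ID8-T6 cells were placed in the left ovarian bursa, and EVs were taken from the pelvis and from the site labelled diaphragm, which the study calls the liver surface, on day 4 and on day 0 (n = 5 each). EVs were taken up with cellulose nanofiber (CNF) sheets laid on moist organs. Both OT days carry the transplantation on their labels, and how day 0 sampling stood to it was not given. The labels did not say that replicates were separate mice, so p-values measure the spread between these samples, which may be technical.

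Each value is a count of reads per 1000000 miRNA reads (RPM). Libraries held 132483 to 661582 miRNA reads on day 4 and 483705 to 2540577 in the other groups, so that 1 read weighed most on day 4. Labelled tissues were in part borne out by markers: the ovary miRNA pair mmu-miR-202-5p and mmu-miR-202-3p summed to 581 to 1039 RPM in normal tissue, but in tumor tissue to 630 RPM in replicate 3 and at most 2 RPM in the other tumors. The hepatocyte markers mmu-miR-122-5p and mmu-miR-802-5p reached 94 to 22242 RPM on the liver surface on day 4 and 1297 to 174765 RPM there on day 0. In the pelvis they reached 0 to 1237 RPM on day 4 and 9.78 to 401 RPM on day 0. The sites thus overlapped on day 4 and not on day 0. Tumor tissues held miRNAs of other organs unequally. Over the list of 6 gut and pancreas miRNAs, replicates 1, 2 and 3 summed to 30305, 49063 and 1375 RPM, against 763 to 1024 RPM in normal tissue, so that replicates 1 and 2 both stood far above the rest. They differed in the 3 pancreatic miRNAs of that list, a choice made after their values were seen. Replicate 2 had 17918 RPM of the pancreatic miRNAs mmu-miR-375-3p, mmu-miR-216a-5p and mmu-miR-217-5p together, against 479 RPM in replicate 1 and 284 RPM in replicate 3. IP normal EV replicate 3 had 2226 RPM of these 3 miRNAs, against 131 and 211 RPM in the other normal EVs. It also had 125437 RPM of red blood cell miRNAs, against 3221 and 5662 RPM. Its endothelial miRNAs summed to 1155 RPM against 440 and 397 RPM, and its leukocyte miRNAs to 11964 RPM against 28575 and 36909 RPM.

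By group mean, all 7 members were highest in IP normal tissue, next in IP tumor tissue and lowest in IP tumor EVs. mmu-miR-200b-3p, the most abundant member in 6 of the 8 groups, averaged 169 ± 73.4 RPM in IP tumor EVs and 1432 ± 475 RPM in IP normal EVs (SD, n = 3 each). It averaged 2951 ± 3072 RPM in IP tumor tissue and 7414 ± 3852 RPM in IP normal tissue (SD, n = 3 each). In the pelvis it averaged 437 ± 283 RPM on day 4 and 1325 ± 417 RPM on day 0, and on the liver surface 502 ± 409 RPM on day 4 and 1221 ± 606 RPM on day 0 (SD, n = 5 each). The step down to IP tumor EVs was the only one in this order that the ranges kept apart. Of 49 pairs of neighbouring groups, over the 7 members, 45 had overlapping ranges, and the other 4 were the step to IP tumor EVs for mmu-miR-200b-3p, mmu-miR-200a-3p, mmu-miR-200c-3p and mmu-miR-141-3p. How many of all miRNAs had such a step was not counted, so it is not shown to be particular to the family. Between IP tumor and normal EVs, 52.1% of 378 miRNAs were called in either direction.

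**Figure D1:**
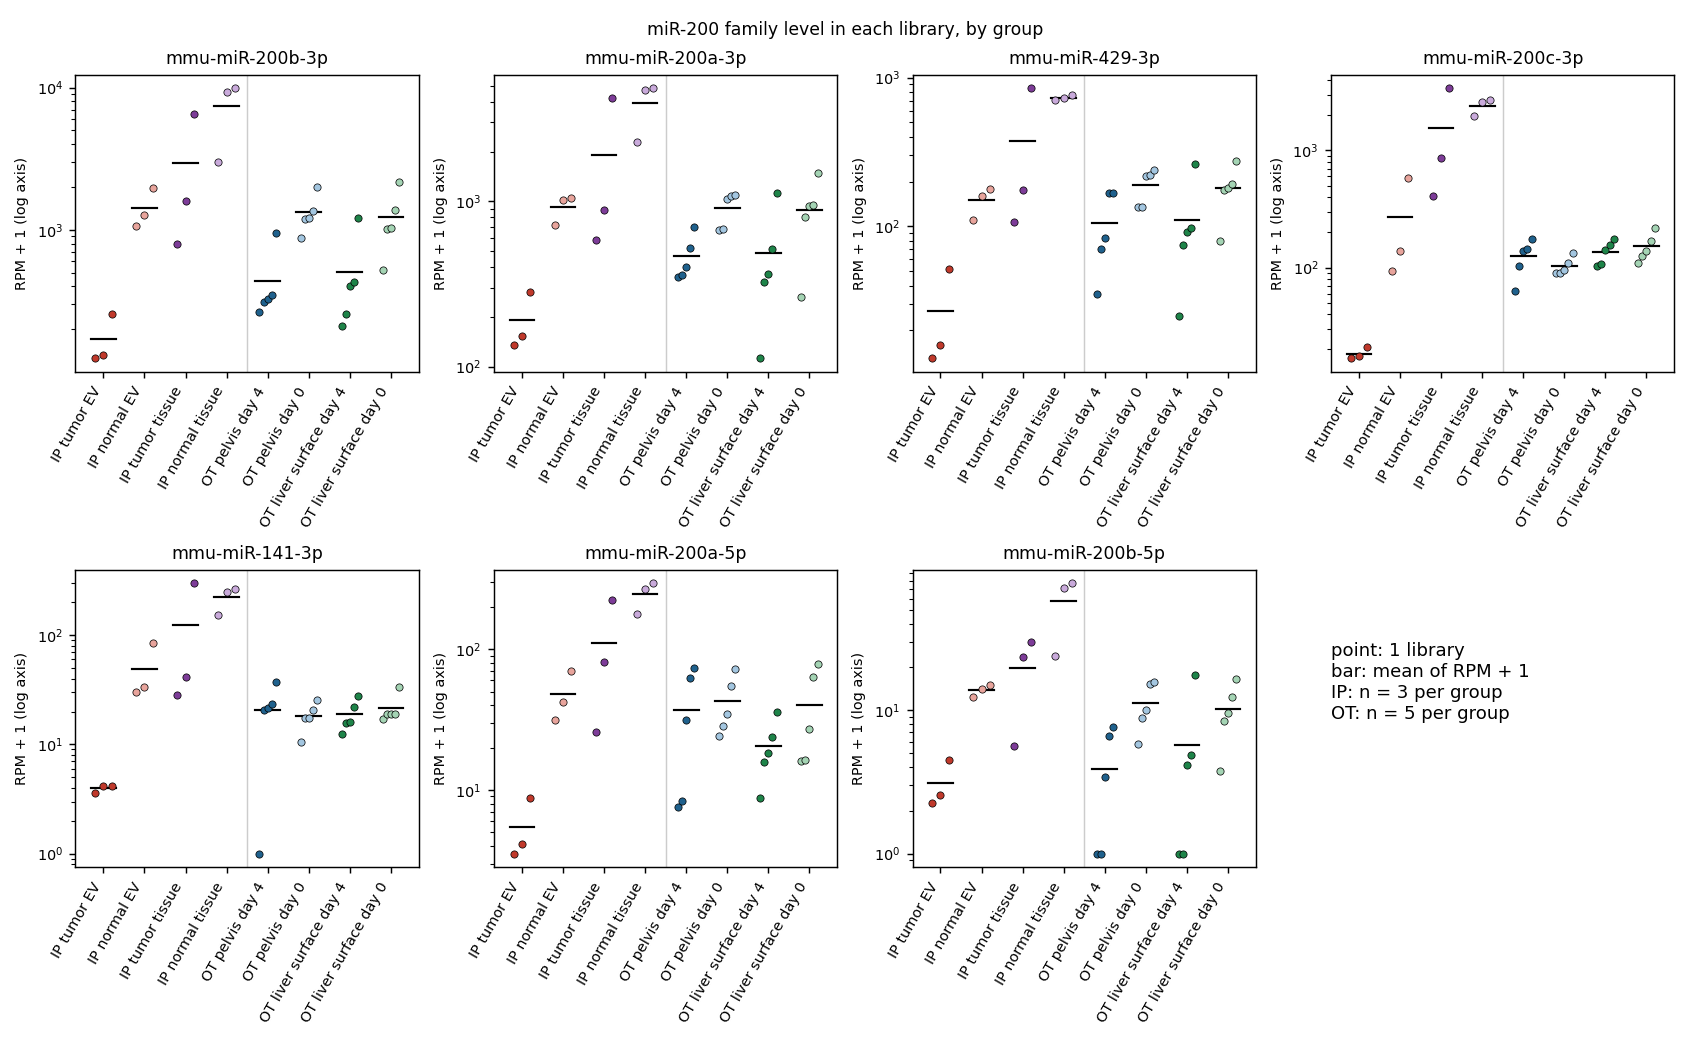
Level of each member in each of the 32 libraries (points) with the group mean (bars), as RPM + 1 on a log axis. IP tumor EVs sit lowest by mean for all 7 members, for mmu-miR-200b-3p at 124 to 254 RPM against 1055 to 1965 RPM in IP normal EVs, and the OT day 4 points spread most where 1 read weighs most.

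The first comparison asked how the family differed in EVs from a tumor-bearing peritoneum. In IP tumor EVs 6 members were called lower, all but mmu-miR-200b-5p. A miRNA was called when the limma test on log2(RPM + 10), adjusted over all miRNAs tested, gave adjusted p under 0.05 and the log2 fold change was beyond 1. By this rule 6 of the 7 members were lower and none was higher, where 36% of the 378 miRNAs tested were lower. mmu-miR-200b-3p had 124, 130 and 254 RPM in tumor EVs, against 1276, 1055 and 1965 RPM in normal EVs. The highest tumor value was thus well under the lowest normal value. Its log2 fold change was -3.03 (SE 0.36, limma adjusted p = 0.000369).

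mmu-miR-200a-3p, transcribed from the same cluster, had 153, 134 and 281 RPM in tumor EVs, against 1010, 721 and 1047 RPM in normal EVs, a log2 fold change of -2.28 with an SE of 0.33 (limma adjusted p = 0.000882). mmu-miR-429-3p, the least abundant guide of that cluster, had 12.0, 15.01 and 51.1 RPM in tumor EVs, against 160, 110 and 177 RPM in normal EVs. Replicate 3 was the highest tumor library for these guides and for both 5p strands. The chromosome 6 guides were lower as well. mmu-miR-200c-3p had 15.8, 16.6 and 19.9 RPM in tumor EVs, against 137, 91.8 and 583 RPM in normal EVs, and its log2 fold change was -2.92 (SE 0.62, limma adjusted p = 0.00555). Here it was normal EV replicate 3, the library that stood apart in pancreatic and several other marker lists, that stood high. mmu-miR-141-3p came to 3 to 5 reads per tumor library, or 2.60 to 3.16 RPM, against 29.2 to 83.7 RPM in normal EVs. Its means differed 16.4-fold, but the log2 fold change was -2.06 (SE 0.33, limma adjusted p = 0.00166), because the 10 RPM added before the log shrinks differences between low values.

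Groups did not overlap for any of the 7 members. How many of all miRNAs were kept apart in this way was not counted, but 52.1% of the 378 were called in either direction. The passenger strands followed: mmu-miR-200a-5p had 2.52 to 7.79 RPM in tumor EVs against 30.6 to 68.8 RPM in normal EVs and was called. mmu-miR-200b-5p had 1.26 to 3.46 RPM against 11.4 to 13.9 RPM and was not called, since its log2 fold change was -0.92 (SE 0.13, limma adjusted p = 0.000806), short of the fold limit. edgeR and DESeq2 on the recovered reads called all 7, where they called 30.2% and 29.4% of the 378 miRNAs lower. The median log2 fold change over the members was -2.27, beside -0.53 over all miRNAs tested. After median-of-ratios scaling, which brought the median of all miRNAs to -0.04, the members' median was -1.77 and the same number of members, 6, was called. That scaling also changed the split of all calls, to 83 higher and 94 lower, against 61 higher and 136 lower in RPM. Markers of other cells moved with the family. All 4 leukocyte miRNAs were called lower, with summed levels of 3830 to 4082 RPM in tumor EVs against 11964 to 36909 RPM in normal EVs. So were all 3 skeletal muscle miRNAs, at 1079 to 2129 RPM against 3754 to 8030 RPM, and no marker of either list was at 0 in any of these libraries. The 1 endothelial miRNA tested and 2 of 3 gut and pancreas miRNAs were called lower too, whereas 2 of 2 miRNAs of ciliated epithelium were called higher and none of the 4 red blood cell miRNAs was called. Their part in the result was not tested. In such bulk samples, fewer vesicles from epithelial cells and less miR-200 per vesicle cannot be told apart.

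**Figure D2:**
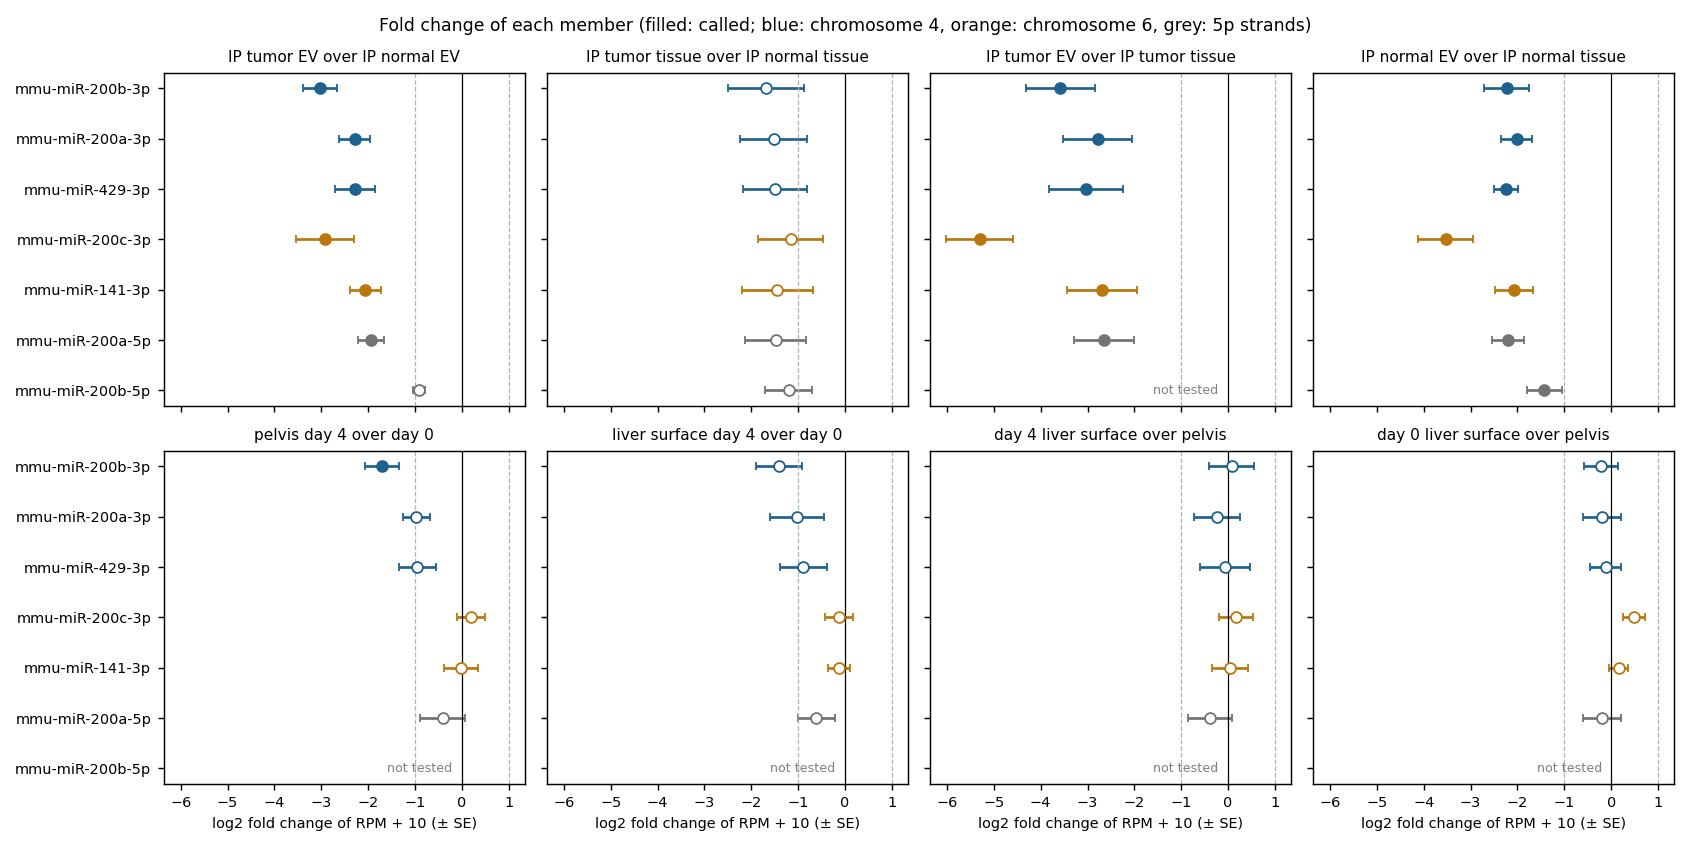
Log2 fold change of RPM + 10 (point) with its SE (line) for each member in the 8 two-group comparisons, where filled points were called. The 3 comparisons that involve IP EVs have 6 or 7 called members, all lower, and the pelvis day 4 comparison has 1.

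In tissue the same comparison was not settled. No member was called by limma between IP tumor tissue and IP normal tissue (0 of 7, where 23.5% of 357 miRNAs were called in either direction). Only mmu-miR-200b-5p had an unadjusted p under 0.05, and edgeR and DESeq2 called 0. All 7 log2 fold changes were nevertheless negative, from -1.16 to -1.68. mmu-miR-200b-3p had 1585, 6469 and 800 RPM in tumor tissue, against 9342, 9922 and 2979 RPM in normal tissue. Tumor replicate 2 lay within the normal range and the other tumors below it, and the log2 fold change was -1.68 (SE 0.80, limma adjusted p = 0.156). mmu-miR-200c-3p had 863, 3413 and 408 RPM in tumor tissue, against 2597, 2683 and 1964 RPM in normal tissue, so that the same replicate was higher than every normal library.

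Tumor tissue replicate 2 was the highest of its group for all 7 members, and it is the library with the pancreatic miRNAs. It also had 2770 RPM of hepatocyte miRNAs, against 9.51 and 150 RPM in the other tumors. Without it, 6 of the 7 members were called lower, where 12.7% of 363 miRNAs were. mmu-miR-200b-3p then had a log2 fold change of -2.52 (limma adjusted p = 0.0125) and mmu-miR-429-3p one of -2.34 (limma adjusted p = 0.00106). The count thus rested on this library, whose mmu-miR-217-5p, a marker of the exocrine pancreas, was 4705 RPM against 2.38 and 54.6 RPM in the other tumors. Replicate 1, which shared the high gut miRNAs, had 1585 RPM of mmu-miR-200b-3p, below every normal library, and without it 0 members were called. Between these tissues 3 of 4 leukocyte miRNAs and 1 of 4 tested gut and pancreas miRNAs were called higher, and 1 of 2 ovary and 1 of 2 endothelial miRNAs were called lower. Of 3 tested ciliated epithelium miRNAs 1 was called lower, and of 3 skeletal muscle miRNAs 1 was called higher and 1 lower. The part of these other organs in the members' levels was not tested.

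The family was much scarcer in EVs than in tissue, in tumor-bearing and in normal mice alike. In tumor-bearing mice 6 of 6 tested members were called lower in EVs, where 23.4% of 351 miRNAs were called lower. mmu-miR-200b-5p was under the level filter. In normal mice 7 of 7 were called lower in EVs, where 23.1% of 390 miRNAs were. mmu-miR-200c-3p showed the widest gap. It had 15.8 to 19.9 RPM in tumor EVs against 408 to 3413 RPM in tumor tissue, a log2 fold change of -5.30 with an SE of 0.71 (limma adjusted p = 0.000983). In normal mice it had 91.8 to 583 RPM in EVs against 1964 to 2683 RPM in tissue, a log2 fold change of -3.54 with an SE of 0.60 (limma adjusted p = 0.00115). For mmu-miR-200b-3p the corresponding log2 fold changes were -3.58 (SE 0.74, limma adjusted p = 0.00602) in tumor-bearing mice and -2.23 (SE 0.48, limma adjusted p = 0.00364) in normal mice.

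No EV library overlapped a tissue library of the same condition for any member. How many of all miRNAs were kept apart likewise was not counted. In either direction, 47.3% of 351 were called in tumor-bearing mice and 59% of 390 in normal mice. The calls in tumor-bearing mice were less firm than those in normal mice. Without tumor EV replicate 1, 2 of 7 members were called, where 16.7% of 377 miRNAs were called lower. Without tumor EV replicate 2, 3 of 7 members were called, where 17.9% of 375 miRNAs were called lower. Without replicate 1, mmu-miR-200a-3p had a log2 fold change of -2.67 with limma adjusted p = 0.0621. Endothelial miRNAs, the mmu-miR-126a pair, lay at 43.5 to 91.8 RPM in tumor EVs against 21093 to 26262 RPM in tumor tissue, and at 397 to 1155 RPM in normal EVs against 45165 to 48717 RPM in normal tissue. All 4 leukocyte miRNAs were called higher in EVs in both conditions. So were 2 of 4 red blood cell miRNAs in tumor-bearing mice and 1 of 4 in normal mice. Ciliated epithelium miRNAs were called lower (2 of 2 and 2 of 3). In tumor-bearing mice 2 of 4 gut and pancreas and 1 of 3 skeletal muscle miRNAs were lower. In normal mice 2 of 3 of each were higher, and 2 of 2 ovary miRNAs lower. Their part was not tested. EV and tissue RNA were also extracted with different kits, so that kit and sample type cannot be told apart.

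Whether the tumor effect differed between EVs and tissue was tested as an interaction. No member was called by limma (0 of 7, where 41.2% of 422 miRNAs were called in either direction). No member had an unadjusted p under 0.05. edgeR called 0, and DESeq2 called 1, mmu-miR-200c-3p, at a log2 difference of -2.92 (DESeq2 adjusted p = 0.0249). In limma that miRNA had the largest difference, with an effect lower in EVs by -1.76 (SE 1.02, limma adjusted p = 0.184). Without tumor tissue replicate 2, the difference for mmu-miR-200a-3p was 0.08, against -0.76 with it. The tumor effect in EVs was therefore not shown to be larger than that in tissue.

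The OT model asked what had changed at an early time. In the pelvis, 1 member was called lower on day 4 than on day 0, mmu-miR-200b-3p (1 of 6 tested, where 5.21% of 403 miRNAs were lower). It had 941, 309, 347, 263 and 323 RPM in replicates 1 to 5 on day 4, against 2003, 1187, 873, 1352 and 1210 RPM on day 0. The groups overlapped through 1 library: day 4 replicate 1 was above the lowest day 0 value, and the other day 4 libraries were below every day 0 library. The log2 fold change was -1.70 (SE 0.36, limma adjusted p = 0.00412). It was -1.57 within the library series marked NGS001 in the labels (n = 3 a day) and -1.89 within NGS002 (n = 2 a day). A series mark in a label is all that is known of these batches.

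mmu-miR-200a-3p had 701, 346, 521, 402 and 357 RPM in the pelvis on day 4, against 1079, 1025, 672, 1094 and 681 RPM on day 0. Its log2 fold change of -0.97 with an SE of 0.29 (limma adjusted p = 0.0216) passed the p threshold and missed the fold limit. mmu-miR-429-3p had a log2 fold change of -0.95 with an SE of 0.40 (limma adjusted p = 0.101). The chromosome 6 guides gave other values. mmu-miR-200c-3p had 103, 139, 143, 174 and 61.9 RPM on day 4, against 93.4, 89.0, 133, 109 and 89.2 RPM on day 0, so that 4 of the 5 day 4 libraries were above the day 0 median. Its log2 fold change was 0.20 (SE 0.30, limma adjusted p = 0.675), and it was -0.11 after median-of-ratios scaling. mmu-miR-141-3p had 19.5 to 36.2 RPM in 4 day 4 libraries and no read in replicate 3, whose 132483 reads allow up to 22.6 RPM (3 reads), against 9.51 to 24.4 RPM on day 0. Its log2 fold change was -0.01 (SE 0.37, limma adjusted p = 0.995), which at 3 to 11 reads in the other day 4 libraries leaves a wide margin.

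The single call in the pelvis depended on the scaling in number, not in direction. Median-of-ratios scaling, edgeR and DESeq2 each called 3 members lower, the 3 guides of chromosome 4. They called 12.7%, 11.2% and 12.2% of the 403 miRNAs lower. Median-of-ratios scaling changed the split of all calls to 58 higher and 51 lower, against 76 higher and 21 lower in RPM. Leaving out pelvis day 4 replicate 1 or 3, or pelvis day 0 replicate 3 or 5, gave 2 called members, as mmu-miR-200a-3p then passed the fold limit as well. Without the 3 shallowest day 4 libraries mmu-miR-200b-3p had a log2 fold change of -1.56 (limma adjusted p = 0.0221). Red blood cell miRNAs moved with the day in the pelvis: all 4 were called higher, and they summed to 26019 to 99362 RPM on day 4 against 687 to 52281 RPM on day 0, with none at 0. Gut and pancreas miRNAs moved the same way as the family: all 3 tested were called lower, and the list of 6 summed to 1905 to 3140 RPM on day 4 against 5995 to 7045 RPM on day 0, without overlap. Of 2 tested ciliated epithelium miRNAs 1 was called higher, and of 3 skeletal muscle miRNAs 1 was called lower. The part of these lists in the result was not tested.

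On the liver surface no member was called between day 4 and day 0 (limma, 0 of 6 tested, where 18.4% of 407 miRNAs were called in either direction). A single member had an unadjusted p under 0.05, and edgeR and DESeq2 each called 1. That member was again mmu-miR-200b-3p, with 402, 1215, 256, 428 and 211 RPM on day 4, against 1376, 1016, 523, 1031 and 2159 RPM on day 0. Day 4 replicate 2 lay among the day 0 values, and day 0 replicate 3, the lowest on day 0, was the only one near the other day 4 libraries. The log2 fold change was -1.41 (SE 0.49, limma adjusted p = 0.0545), with -1.33 within NGS001 and -1.52 within NGS002. It passed the threshold without day 4 replicate 2, at -1.80 (limma adjusted p = 0.00935), and without day 0 replicate 3, at -1.67 (limma adjusted p = 0.0236). Day 0 replicate 3 is the library with 174765 RPM of hepatocyte miRNAs. Its part in the result was not tested. After median-of-ratios scaling 3 members were called lower, where 9.09% of the 407 miRNAs were. mmu-miR-200c-3p had 102 to 175 RPM on day 4 and 108 to 216 RPM on day 0, a log2 fold change of -0.13 with an SE of 0.30 (limma adjusted p = 0.809). Red blood cell miRNAs, at 27993 to 75184 RPM on day 4 and 3203 to 125542 RPM on day 0, were not called here. Of the gut and pancreas miRNAs 2 of 3 tested were called lower, with sums of 1855 to 3753 RPM on day 4 against 6820 to 46420 RPM on day 0. Of the skeletal muscle miRNAs 1 of 3 and of the hepatocyte miRNAs 1 of 2 were called lower, while 2 of 3 ciliated epithelium miRNAs were called higher. Their part in the members' levels was not tested.

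The day effect was not shown to differ between the sites. In the interaction test no member was called (limma, 0 of 7, where 0.448% of 446 miRNAs were), none had an unadjusted p under 0.05, and edgeR and DESeq2 called 0. The differences ran from -0.33 for mmu-miR-200c-3p to 0.29 for mmu-miR-200b-3p. A difference between the sites was not shown for the family on either day. On day 4, no member was called between liver surface and pelvis (0 of 6, where 0% of 424 miRNAs were called by limma and 40 had an unadjusted p under 0.05). edgeR also called 0 miRNAs there, DESeq2 called 7 and the fit blocked on replicate number called 7, without a member among them. On day 0, no member was called either (0 of 6, where 1.56% of 385 miRNAs were), and 6 miRNAs in all were called, against 21 in the fit blocked on replicate number. No member had an unadjusted p under 0.05 on either day, and neither edgeR nor DESeq2 called one. The largest difference on day 0 was that of mmu-miR-200c-3p, at 108 to 216 RPM on the liver surface and 89.0 to 133 RPM in the pelvis, a log2 fold change of 0.49 with an SE of 0.24 (limma adjusted p = 0.412). Same-numbered libraries deviated together here, but the labels do not say that they share a mouse. In 5 of 5 same-numbered pairs mmu-miR-200c-3p was higher on the liver surface. The fit blocked on replicate number did not call it either (limma adjusted p = 0.169).

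The loci can be set side by side within each library, where scaling cancels. The ratio of the 3 guides of chromosome 4 to the 2 guides of chromosome 6 was 15.2, 14.1 and 26.0 in IP tumor EVs, against 2.97, 3.11 and 3.31 in IP tumor tissue. These ranges were far apart, and tumor tissue was the tightest group, although its guides summed to 1934 to 15253 RPM. IP normal EVs had ratios of 14.4, 15.6 and 4.78, against 5.17, 5.28 and 2.82 in IP normal tissue. Normal EV replicate 3, which stood apart in pancreatic and several other marker lists, was the only IP EV library inside the range of normal tissue. Some OT day 4 libraries lay there too, at 4.66 and 3.48 in the pelvis and 4.34 and 2.83 on the liver surface. These had 7.31 to 23.1 RPM of the pancreatic miRNAs, whose part in the ratio was not tested. Put as a share, the chromosome 6 guides made up 3.70 to 6.61% of the guide reads in tumor EVs and 23.2 to 25.2% in tumor tissue. In tumor EV replicate 1 this was 6.16% (95% Wilson interval 4.35 to 8.66%), an interval that covers counting error only. Ratios are of reads, and adapters do not join to every miRNA equally well, so that a ratio can be read only beside that of another group. Between EVs and tissue the extraction kit differed as well, which a ratio does not cancel. Reads could also have been given to a relative on the other chromosome within the 2 mismatches allowed in mapping. How much kit and mapping moved the ratios was not tested.

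In the OT model the ratios of both days overlapped at both sites, with a lower mean on day 4. In the pelvis they were 14.4, 4.66, 7.21, 3.48 and 8.67 on day 4, against 30.04, 22.6, 11.2, 20.01 and 20.5 on day 0, overlapping only through day 4 replicate 1 and day 0 replicate 3. Same-numbered pelvis libraries deviated together, but the labels do not say that they share a mouse. Between same-numbered libraries the ratio was lower on day 4 in 5 of 5 pairs. On the liver surface they were 4.34, 15.4, 5.95, 6.06 and 2.83 on day 4, against 10.7, 14.1, 5.63, 10.7 and 31.1 on day 0, and overlapped more. The chromosome 4 guides summed to 715 to 1809 RPM in the pelvis on day 4 and 1679 to 3304 RPM on day 0. The chromosome 6 guides summed to 82.5 to 211 RPM on day 4 and 98.7 to 149 RPM on day 0. The lower ratio thus came with fewer chromosome 4 guides and a like level of chromosome 6 guides. In the IP comparison of EVs both loci were lower, and the ratios of tumor EVs overlapped those of normal EVs. No test was run on these ratios, since they are scores over the members.

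**Figure D3:**
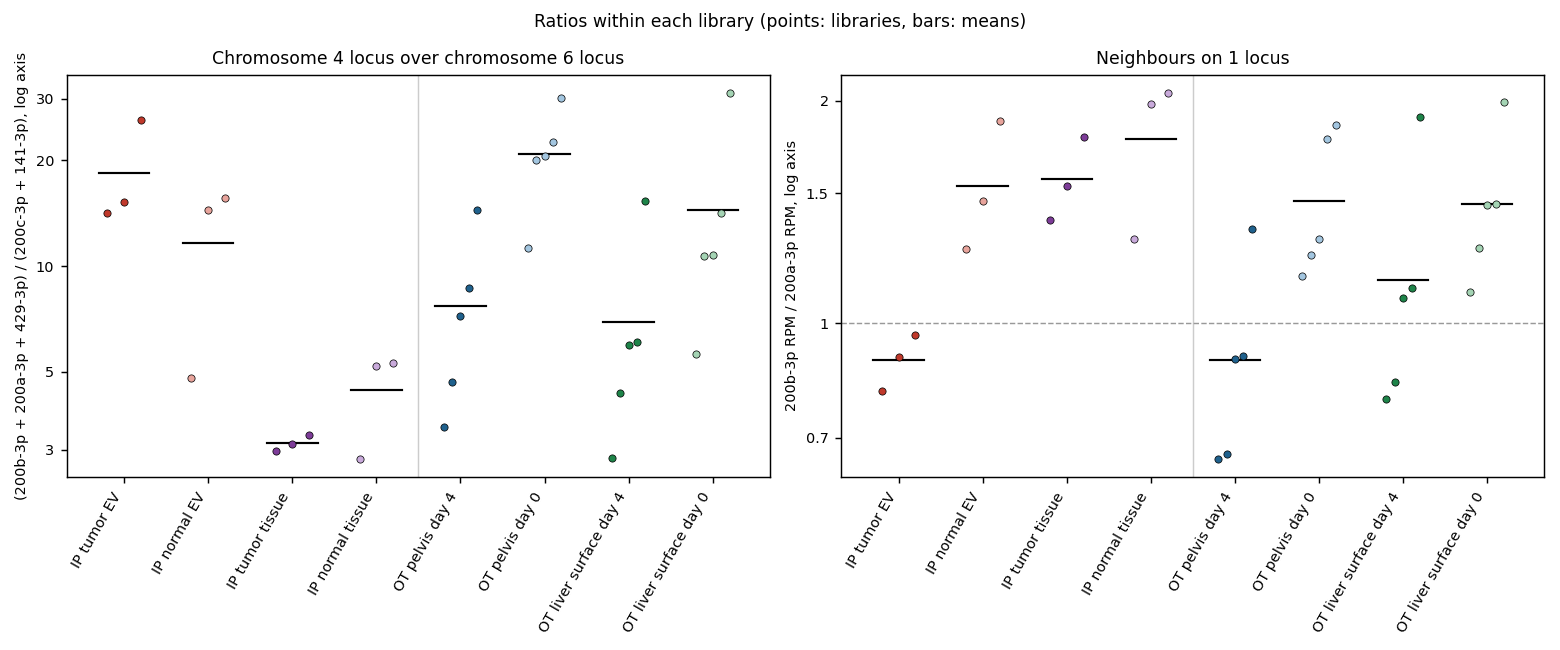
Ratio of the summed chromosome 4 guides to the summed chromosome 6 guides (left) and of mmu-miR-200b-3p to mmu-miR-200a-3p (right) in each library, on log axes, with group means as bars. IP tumor EVs (14.1 to 26.0) and IP tumor tissue (2.97 to 3.31) are far apart on the left, and IP tumor EVs are the only group wholly below 1 on the right.

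Neighbours on the chromosome 4 cluster did not keep a fixed ratio. mmu-miR-200b-3p was 0.81, 0.96 and 0.90 times mmu-miR-200a-3p in IP tumor EVs, against 1.26, 1.46 and 1.88 times in IP normal EVs. In tissue it was 1.38 to 1.79 times in tumor and 1.30 to 2.05 times in normal samples. It was 0.66 to 1.34 times in the pelvis on day 4 and 1.16 to 1.86 times on day 0, and 0.79 to 1.90 times on the liver surface on day 4 and 1.10 to 1.99 times on day 0. The day ranges overlapped at both sites, and those of the IP EVs did not. Between same-numbered pelvis libraries the ratio was lower on day 4 in 5 of 5 pairs. Each of these miRNAs has a relative on chromosome 6 within the 2 mismatches allowed in mapping, and how much this moved the ratio was not tested. For mmu-miR-429-3p over mmu-miR-200a-3p, the mean ratios were 0.12 in IP tumor EVs, 0.16 in IP normal EVs and 0.19 to 0.23 in the other groups. On chromosome 6, mmu-miR-200c-3p was 5.00 to 7.67 times mmu-miR-141-3p in tumor EVs, against 10.1 to 31.6 times in tumor tissue, and 3.14 to 6.97 times in normal EVs, against 9.78 to 12.9 times in normal tissue.

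By seed, the makeup of the guides also differed. Guides with the seed AAUACUG made up 49.3, 54.0 and 53.3% of the guide reads in IP tumor EVs, against 60.1, 62.6 and 70.7% in IP normal EVs, without overlap. They made up 67.9 to 74.2% in tumor tissue and 69.8 to 72.4% in normal tissue. In the pelvis they made up 52.6 to 62.6% on day 4 and 59.2 to 67.9% on day 0, and the ranges overlapped. Between same-numbered pelvis libraries the share was lower on day 4 in 4 of 5 pairs and higher in 1. On the liver surface these guides made up 54.3 to 73.1% on day 4 and 58.8 to 72.6% on day 0. The passenger strands were minor in every group: mmu-miR-200b-5p averaged 0.61 to 1.202% of mmu-miR-200b-3p by group, and mmu-miR-200a-5p averaged 2.26 to 7.43% of mmu-miR-200a-3p. The mmu-miR-200a-5p share was lowest in IP tumor EVs, at 1.65 to 2.77%, against 4.09 to 6.57% in IP normal EVs. These rested on 4 to 9 reads of mmu-miR-200a-5p in each tumor EV library.

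**Figure D4:**
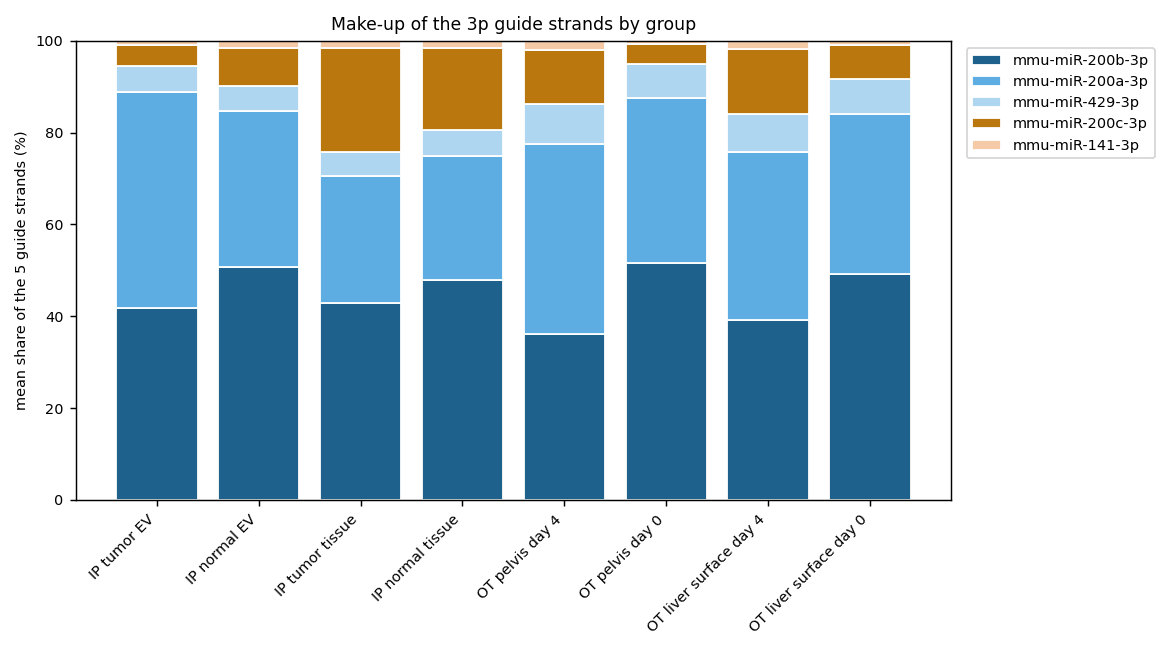
Mean share (%) of each guide strand among the 5 guide strands, by group, stacked to 100%. The chromosome 6 guides (orange) average 5.49% in IP tumor EVs and 24.2% in IP tumor tissue, and mmu-miR-200a-3p averages 47.0% in IP tumor EVs and 33.9% in IP normal EVs.

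Other miRNAs known for epithelia did not follow the family as a group. Of 6 such miRNAs (mmu-miR-203-3p, mmu-miR-205-5p, mmu-miR-375-3p, mmu-miR-182-5p, mmu-miR-183-5p and mmu-miR-96-5p), 3 were called higher and 2 lower in IP tumor EVs, with a median log2 fold change of 1.89 beside -0.53 over all miRNAs tested. mmu-miR-182-5p averaged 5158 ± 286 RPM in tumor EVs and 64.5 ± 29.6 RPM in normal EVs, a log2 fold change of 6.21 with an SE of 0.34 (limma adjusted p = 1.48e-05). mmu-miR-183-5p averaged 2100 ± 113 RPM in tumor EVs and 32.8 ± 15.003 RPM in normal EVs (SD, n = 3 each). The members called lower were mmu-miR-203-3p, a miRNA of squamous epithelium, at a log2 fold change of -2.56, and mmu-miR-375-3p, of neuroendocrine cells and pancreatic islets, at -3.64. In tumor tissue 3 were called higher and 2 lower against normal tissue, in the pelvis 3 higher and 1 lower on day 4, and on the liver surface 3 higher and 1 lower. In each of these 4 comparisons the 3 called higher were mmu-miR-183-5p, mmu-miR-96-5p and mmu-miR-182-5p, which come from 1 polycistron expressed in sensory organs and in many carcinomas. In IP tumor EVs the clusters thus had calls in opposite directions in the same libraries. The sum of the 5 miR-200 guides was 299 to 609 RPM in IP tumor EVs and 2006 to 3856 RPM in IP normal EVs. That of these 3 miRNAs, a sum chosen after its values were seen, was 8139 to 9083 RPM in IP tumor EVs and 65.6 to 169 RPM in IP normal EVs.

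**Figure D5:**
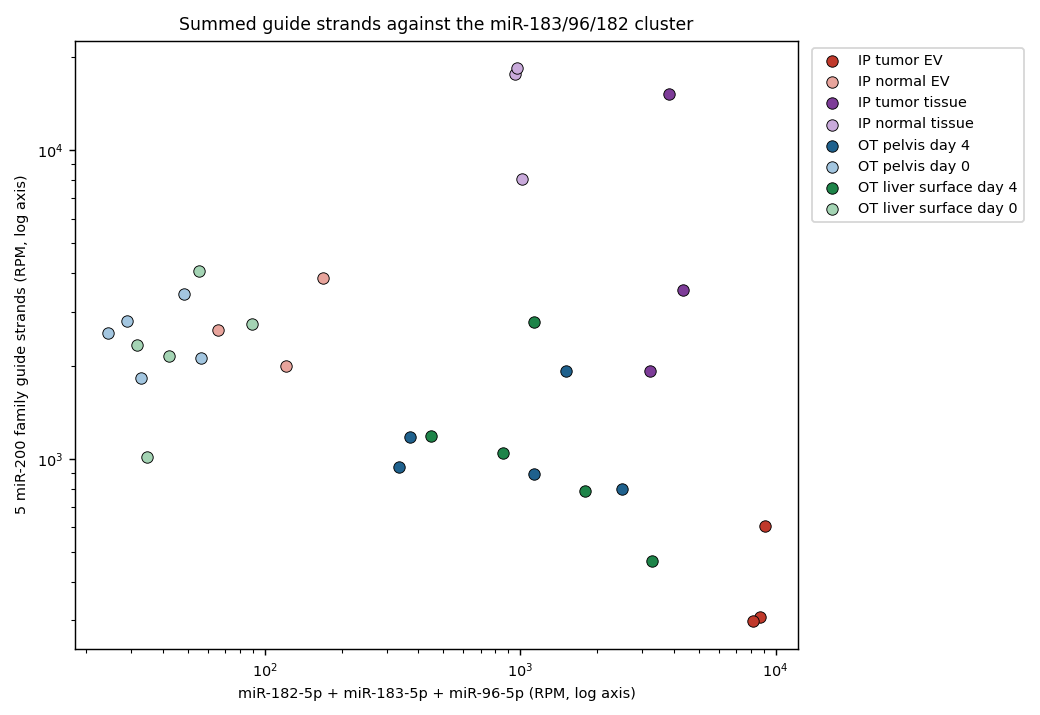
Sum of the 5 miR-200 guides (vertical) against the sum of mmu-miR-182-5p, mmu-miR-183-5p and mmu-miR-96-5p (horizontal) in each of the 32 libraries, in RPM on log axes. IP tumor EVs lie at the lower right (299 to 609 RPM of guides), the OT day 4 libraries between them and the day 0 libraries on the left, and the tissues at 1934 RPM of guides and above.

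Mesenchymal miRNAs gave no single direction either. Of 6 (mmu-miR-199a-3p, mmu-miR-199a-5p, mmu-miR-199b-5p, mmu-miR-214-3p, mmu-miR-143-3p and mmu-miR-145a-5p), 1 was called higher and 3 lower in IP tumor EVs. mmu-miR-143-3p, of smooth muscle, averaged 4707 ± 1911 RPM in tumor EVs and 17335 ± 12157 RPM in normal EVs, a log2 fold change of -1.64 with an SE of 0.61 (limma adjusted p = 0.0472). mmu-miR-199a-3p, of fibroblasts, averaged 1670 ± 95.9 RPM in tumor EVs and 3090 ± 602 RPM in normal EVs, a log2 fold change of -0.87 that was not called. In tumor tissue 0 were called higher and 1 lower. Against tissue, EVs had 6 called lower in tumor-bearing mice and 5 lower in normal mice, and none higher. On day 4, 2 were called higher and 0 lower at each site, mmu-miR-199a-5p and mmu-miR-214-3p. In the pelvis mmu-miR-214-3p had a log2 fold change of 1.70 with an SE of 0.42 (limma adjusted p = 0.00806).

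Across the 32 libraries members tracked each other most closely within a locus. On log2(RPM + 10), Pearson r was 0.97 between mmu-miR-200b-3p and mmu-miR-200a-3p, 0.96 between mmu-miR-200a-3p and mmu-miR-429-3p, and 0.91 between mmu-miR-200c-3p and mmu-miR-141-3p. Between the loci it was 0.74 to 0.80 for the guides. Of the 416 other miRNAs compared, the one most like the mean of the 5 guides was mmu-miR-676-3p (r = 0.93), followed by mmu-miR-145a-3p (0.81), mmu-miR-126a-3p (0.78), mmu-miR-126b-5p (0.77) and mmu-miR-708-3p (0.75). mmu-miR-676-3p led for each locus alone as well, at 0.91 for chromosome 4 and 0.85 for chromosome 6, followed by mmu-miR-145a-3p and mmu-miR-455-3p for chromosome 4 and by mmu-miR-145a-3p and mmu-miR-126a-3p for chromosome 6. Libraries of the same group and sample type share much of this pattern, so these values are descriptions. In the tests mmu-miR-676-3p was called lower in IP tumor EVs, at a log2 fold change of -2.20 with an SE of 0.30 (limma adjusted p = 0.000732). On the liver surface it was called lower on day 4, at -1.04 (SE 0.30, limma adjusted p = 0.0243). It was picked for its likeness to the family over these same libraries, so these calls add no independent support.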

How the data were processed

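Small RNA-seq of 32 mouse libraries was analysed. Per the study's methods, adapters were trimmed in CLC Genomics Workbench 9.5.3, where reads were then aligned to miRBase 22, allowing at most 2 mismatches. The authors deposited RPM values per mature miRNA, which sum to 1000000 in each library. How reads fitting several miRNAs were assigned is not given in the sources used here. All RPM values (100% within 0.001) were whole multiples of 1 read, so read counts were recovered for edgeR 4.0.16 and DESeq2 1.42.0.

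The main test was limma 3.58.1 (R 4.3.3, trended eBayes, two-sided) on log2(RPM + 10), in the groups compared only, for miRNAs with 10 RPM in at least as many libraries as the smaller group, with Benjamini-Hochberg adjustment over all miRNAs tested. A call needed a log2 fold change beyond 1 in size at an adjusted p under 0.05. For the interactions the 12 IP or the 20 OT libraries entered. Fold changes on this scale understate those of low miRNAs.

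The rule for naming took all 7 members, at most 2 miRNAs of the epithelial and of the mesenchymal list by mean level, and the nearest patterns by Pearson r. mmu-miR-203-3p, mmu-miR-375-3p, mmu-miR-199a-5p and mmu-miR-214-3p were named after their values were seen. The members and lists were chosen with earlier results of these data known. Alternatives were pseudocounts of 1 and 50 RPM, no filter or 100 RPM, median-of-ratios scaling, edgeR, DESeq2, a replicate block, all libraries of the model, the library series, and each library left out. Same-numbered samples deviated together in 5 of 8 comparisons (r of 0.12 to 0.74 over pairs), which share numbers in the labels and, in the OT model, library series. In these the blocked fit is given beside a result only where it changed it. The test was checked on simulated counts. No 2 libraries of a group held identical values.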

Additional observations from a re-analysis of the deposited data

Results flagged for a closer look

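In groups of 5 libraries, a single library far from the others was looked for in 28 sets of values (7 members in 4 OT groups), and 2 were found. Chance alone finds such a library in about 1 of 20 sets. mmu-miR-200b-3p had 940.7 RPM (338 reads) in pelvis day 4 replicate 1, while the other day 4 pelvis libraries had 263 to 347 RPM. Without that library the pelvis count of called members was 2. mmu-miR-141-3p had 32.4 RPM (49 reads) in liver surface day 0 replicate 4, while the other libraries of that group had 16.1 to 18.1 RPM.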

How the results depend on the processing

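Over 10 comparisons, 65 member values were tested and 20 were called. None of these 20 turned its direction under any of 301 alternatives, while 7 lost their call under at least 1. Of 196 counts of called members under alternatives, 21 moved by over 1.5 times. The cause of these moves was not tested.

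For IP tumor EVs over normal EVs, 6 members were called, against 7 with edgeR, 7 with DESeq2 and 3 of 3 tested with a filter of 100 RPM. mmu-miR-141-3p and mmu-miR-200a-5p each lost the call under 1 alternative, at log2 fold changes of -0.85 and -0.81. For IP tumor tissue over normal tissue, 0 were called, against 1 with all IP libraries in the fit, 2 with the replicate block, and 0 to 6 when single libraries were left out, the 6 without tumor tissue replicate 2. For IP tumor EVs over tumor tissue 6 were called, and 2 to 7 when single libraries were left out, and for IP normal EVs over normal tissue 7 were called, and 6 to 7 under the alternatives. For the pelvis, 1 was called, against 3 with median-of-ratios scaling, 3 with edgeR, 3 with DESeq2, 2 after thinning all libraries to 132483 reads, and 1 to 2 without single libraries. For the liver surface, 0 were called, against 3 with median-of-ratios scaling, 1 with edgeR, 1 with DESeq2, 1 with all OT libraries in the fit, and 0 to 1 without single libraries. For the tumor effect in EVs minus that in tissue, 0 were called, against 1 with DESeq2. Same-numbered samples did not all deviate together for tumor against normal tissue, for tumor EVs against tumor tissue or for the liver surface days. In the fits with the replicate block, 6 members were called for tumor EVs over normal EVs, 7 for normal EVs over normal tissue, 6 for tumor EVs over tumor tissue, 1 for the pelvis and 0 elsewhere apart from the 2 above, so that no other count of called members changed.

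Directions turned in 77 values, none of them called and none with an adjusted p under 0.05 after turning. For the day 0 sites, mmu-miR-429-3p became 0.041 with median-of-ratios scaling and 0.058 with DESeq2, and mmu-miR-200a-3p became 0.048 with DESeq2. Leaving out single libraries gave -0.45 to 0.056 for mmu-miR-200b-3p, -0.42 to 0.19 for mmu-miR-200a-3p, -0.29 to 0.13 for mmu-miR-429-3p and -0.45 to 0.0030 for mmu-miR-200a-5p. For the day 4 sites, mmu-miR-141-3p became -0.023 with a pseudocount of 50 RPM, -0.073 with edgeR, -0.10 with DESeq2 and -0.28 without the 3 shallow libraries. There mmu-miR-200a-3p became 0.068 with edgeR and 0.058 with DESeq2, and mmu-miR-429-3p became 0.12 and 0.11. Single libraries left out gave -0.31 to 0.39 for mmu-miR-200b-3p, -0.62 to 0.18 for mmu-miR-200a-3p, -0.43 to 0.32 for mmu-miR-429-3p, -0.043 to 0.30 for mmu-miR-200c-3p and -0.32 to 0.23 for mmu-miR-141-3p. For the pelvis, mmu-miR-200c-3p became -0.11 with median-of-ratios scaling, -0.042 with edgeR, -0.036 with DESeq2 and -0.19 after thinning. mmu-miR-141-3p became 0.034 with a pseudocount of 50 RPM, 0.030 with edgeR, 0.026 with DESeq2, 0.40 without the 3 shallow libraries, and -0.21 to 0.34 without single libraries. For the liver surface, mmu-miR-200c-3p became 0.039 after thinning and -0.23 to 0.0033 without single libraries.

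For the tumor effect in EVs minus that in tissue, mmu-miR-200b-5p became -0.53 with a pseudocount of 1 RPM, -0.10 with edgeR and -0.52 with DESeq2, and a pseudocount of 50 RPM gave 0.14 for mmu-miR-141-3p and 0.26 for mmu-miR-200a-5p. Without single libraries the values were -1.34 to 0.083 for mmu-miR-200a-3p, -1.38 to 0.068 for mmu-miR-429-3p, -1.19 to 0.33 for mmu-miR-141-3p, -1.14 to 0.23 for mmu-miR-200a-5p and -0.14 to 0.73 for mmu-miR-200b-5p. For the day effect on the liver surface minus that in the pelvis, mmu-miR-141-3p became 0.22 with a pseudocount of 1 RPM and 0.35 after thinning, mmu-miR-429-3p became -0.025 with median-of-ratios scaling and -0.10 without the 3 shallow libraries, mmu-miR-200a-3p became 0.032 with edgeR and 0.035 with DESeq2, mmu-miR-200a-5p became 0.11 without the 3 shallow libraries, and mmu-miR-200c-3p became 0.23 after thinning. Without single libraries the values were -0.31 to 0.44 for mmu-miR-429-3p, -0.43 to 0.37 for mmu-miR-200a-3p, -0.49 to 0.089 for mmu-miR-200a-5p, -0.10 to 0.60 for mmu-miR-200b-3p, -0.036 to 0.32 for mmu-miR-200b-5p and -0.48 to 0.072 for mmu-miR-141-3p.

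Median-of-ratios scaling moved the median log2 fold change of all miRNAs from 0.50 to 0.04 for IP normal EVs over normal tissue, from 0.18 to -0.10 for the pelvis, from 0.20 to -0.08 for the liver surface, from -0.10 to 0.01 for IP tumor EVs over tumor tissue, from -0.15 to -0.01 for the day 0 sites and from -0.50 to -0.03 for the tumor effect in EVs minus that in tissue. With it, all calls split into 90 higher and 110 lower for IP normal EVs over normal tissue (140 and 90 in RPM), 45 and 37 for the liver surface (63 and 12 in RPM), and 80 and 84 for the tumor effect (58 and 116 in RPM).

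Depth limits the low members: mmu-miR-200b-5p had at most 2 reads in 9 of the 10 day 4 libraries. Thinning and leaving out the 3 shallow libraries were chosen after seeing the data.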
